A study of Rattus norvegicus with 8 samples.

Results

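Of 9 enzyme genes of amino acid nitrogen handling, none differed past the threshold between hyperthyroid and untreated rat tibialis anterior. The members are the cytosolic and mitochondrial alanine and aspartate aminotransferases (Gpt, Gpt2, Got1, Got2), the mitochondrial branched-chain aminotransferase (Bcat2), both E1 subunits of the branched-chain ketoacid dehydrogenase (Bckdha, Bckdhb), glutamine synthetase (Glul) and glutamate dehydrogenase (Glud1). They were taken by name from the 14217 genes that have a probe set with a single gene symbol, and every probe set that carries one of the 9 symbols, 15 in all, was followed. All 15 passed the filter on low values that kept 18625 probe sets of the array.

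The muscle, which lies at the front of the lower leg and is made mainly of fast-twitch fibres, came from 8 adult Sprague-Dawley rats with a starting weight of 200 ± 40 g, and each rat gave 1 array. The hyperthyroid group was 4 rats given triiodothyronine (T3, the active thyroid hormone) into the peritoneum for 6 weeks, with an injection every 2 days of 25 µg for each 100 g the animal weighed, and the last one 24 hours before death. The control group was 4 untreated rats, for which the labels give no vehicle injection. There were 3 males and 1 female a group, and no label tells which array belongs to the female. The hyperthyroid arrays are called H1, H2, H3 and H5 and the control arrays C7, C8, C9 and C11 after the replicate numbers in the labels.

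As background, resting and working muscle takes up branched-chain amino acids and moves their amino groups onto 2-oxoglutarate to make glutamate. Glutamate then gives its amino group to pyruvate or is joined with ammonia. The nitrogen leaves the muscle as alanine and glutamine, which liver, gut and kidney use. The aspartate aminotransferases also serve the malate-aspartate shuttle, which carries reducing equivalents into mitochondria. Thyroid hormone excess is known for muscle wasting and for faster protein turnover, so these enzymes lie on the path by which nitrogen from muscle protein is exported.

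Markers of the labelled muscle were present. All 9 measured genes of the list for fast-twitch muscle, among them Ckm, Acta1 and Myh4, were abundant. Their summed intensity was 312952 to 382602 on control and 262016 to 320502 on hyperthyroid arrays. Whether each of them is confined to fast fibres was not tested. Of these 9, each by its brightest kept probe set, 8 had log2 fold changes below 0, and 5 (55.6%) had an unadjusted limma p under 0.05, all lower. Tnnt3, at -0.41, was at 0.29 on its other probe set. Among all tested probe sets 50.8% were below 0, and 10.4% of all genes had an unadjusted p under 0.05 in either direction. Slow-fibre markers set 2 control arrays apart. Their sum over 9 genes was 47949 on C7 and 30547 on C11, against 5012 to 6406 on the other control arrays and 1470.3 to 9910.0 on hyperthyroid arrays. By their brightest kept probe sets, all 9 slow-fibre genes were below 0, with a median of -2.72, and 7 (77.8%) had an unadjusted limma p under 0.05. Further probe sets of Myh7, Myl2 and Tnni1 were also below 0. Those of Atp2a2 ran from -0.29 to 0.03, against -1.75 on its brightest, and those of Tpm3 from -2.38 to 0.57. Tnnt1 lay above the value of the filter on low values in the control group only, so it had to differ. The 8 others were all below 0, with a median of -2.71, and 6 of them had an unadjusted p under 0.05. No gene of either list passed after adjustment. The sum over 6 measured Schwann cell and nerve markers was also highest on C7 and C11, at 3284 and 2274, against 468 to 1187 on all other arrays. Pmp22 gave most of that sum, with 2537 on C7 and 1916 on C11. Mal was also highest on these arrays, while Mbp, S100b, Prx and Egr2 were not highest on both. Prx, Mal and Egr2 lay above the filter value in 1 group only. All 7 smooth muscle markers were below 0, and 3 (42.9%) had an unadjusted limma p under 0.05. Cnn1 likewise lay above the filter value in the control group only. Leaving Cnn1 out, 6 of 6 were below 0, 3 of them with an unadjusted p under 0.05. The sum over all 7 overlapped between the groups, at 6568 to 9482 on hyperthyroid and 8190 to 9817 on control arrays. Without Des, which skeletal fibres also express, 6 markers, Cnn1 among them, summed to 1258 to 1459 on hyperthyroid and 1580 to 2767 on control arrays. The sums without Des did not overlap, as was so for 6.15% of all tested probe sets taken singly. The part of these marker differences in the values of the enzymes was not tested, beyond leaving out C7 and C11. The summed signals of endothelial, adipocyte, macrophage and erythroid markers overlapped between the groups. Abundant transcripts took a smaller share of the signal after T3, since the 100 brightest probe sets held 22.6 ± 1.18% of it in the hyperthyroid group and 26.6 ± 0.880% in controls (SD, n = 4 each). The exact two-sided permutation test gave p = 0.0286, the lowest value 4 arrays against 4 can reach. In whole muscle, fewer cells of a type and less RNA per cell cannot be told apart.

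None of the 15 member probe sets passed an adjusted p of 0.05 in limma, where 0.0322% of all tested probe sets passed. Scaled instead to the median or the mean of 18 spiked hybridization controls, which moved the median log2 fold change of all tested probe sets to 0.51 and 0.30, 5 and 1 member probe sets passed, beside 2798 and 118 of all 18625. Before adjustment, 4 of the 15 had a limma p under 0.05, 3 higher and 1 lower in the hyperthyroid group, as did 9.68% of all tested probe sets (4.91% higher and 4.76% lower). These 4 belonged to Gpt2, Bckdhb, Glul and Gpt. The count fell to 1 without C11, to 2 without C8 and to 2 without both C7 and C11. For none of the 15 did all arrays of one group lie above all arrays of the other, a separation seen in 6.15% of all tested probe sets. The log2 fold changes, each the hyperthyroid minus the control mean of log2 intensity, were above 0 for 7 and below 0 for 8 (below 0 for 50.8% of all tested probe sets), with a median of -0.031 against -0.0077 over all tested probe sets.

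**Figure D1:**
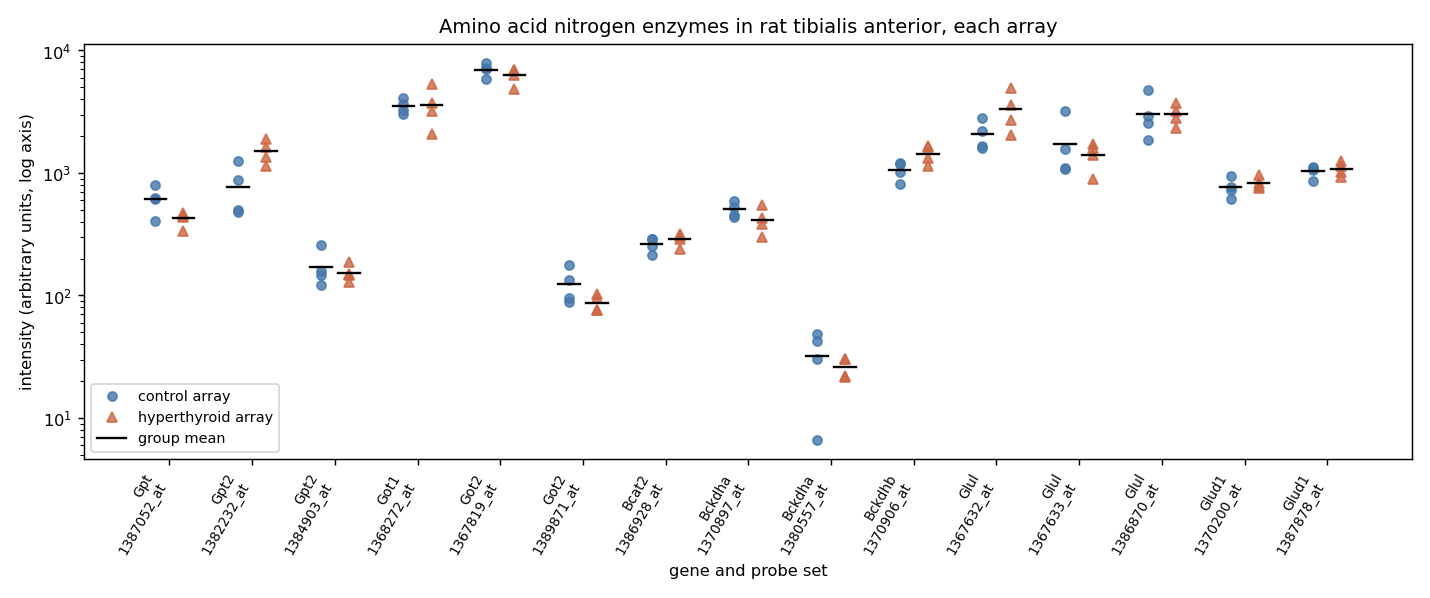
Intensity (arbitrary units, log axis) of each of the 15 probe sets on each array, with control arrays as circles, hyperthyroid arrays as triangles and group means as lines. The groups overlap for every probe set, and levels of different probe sets are not comparable with each other.

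Alanine aminotransferase moves the amino group of glutamate onto pyruvate and makes the alanine that muscle exports. Gpt2, the mitochondrial form, had the highest fold of the members on one of its probe sets and no such difference on the other. On probe set 1382232_at the intensity was 478, 1249, 871 and 495 on C7, C8, C9 and C11, and 1130.1, 1626, 1357 and 1878 on H1, H2, H3 and H5. The mean was 1498 ± 324 against 773 ± 366 in controls (SD, n = 4 each), a 2.06-fold difference with a 95% interval of 1.37 to 3.09. The groups overlapped at one place, where H1 lay below C8, and the difference did not pass (log2 1.04 ± 0.27, SE, limma adjusted p = 0.262).

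The region around the annotated start of Gpt2 is shown because Gpt2 had the smallest p of the members. It is chr19:37732710-37733009 on the minus strand of GRCr8, as given by RefSeq, from 250 bases before to 50 bases after the start, and 64% of its bases are G or C. On both strands it was searched for AGGTCA, the half-site of nuclear receptors such as the thyroid hormone receptor, and for TGATGNAA, the core of the element bound by ATF4 in amino acid shortage. Neither is in this window, which has no capitals for that reason, and 16.2% and 3.98% of 33469 promoter windows of that length hold them. Of the 7 members matched in RefSeq's promoter table, none held AGGTCA, and Got1 held TGATGNAA on its minus strand, 167 bases before the start.
Gpt2 promoter: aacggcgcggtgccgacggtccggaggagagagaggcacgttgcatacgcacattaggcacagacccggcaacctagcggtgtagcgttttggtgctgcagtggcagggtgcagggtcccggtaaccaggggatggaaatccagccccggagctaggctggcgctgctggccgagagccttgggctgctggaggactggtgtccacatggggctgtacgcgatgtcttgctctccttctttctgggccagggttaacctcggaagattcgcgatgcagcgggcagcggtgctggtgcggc

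C7 and C11, the arrays with high slow-fibre signal, were the lowest of all 8 for Gpt2 on probe set 1382232_at. Without both, the log2 fold change was 0.49 (limma adjusted p = 0.568). Whether the fibre make-up of these arrays had a part in the difference was not tested. Leaving out 1 array at a time gave log2 fold changes of 0.85 to 1.31, with the lowest without C7 and the highest without C8.

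The other Gpt2 probe set, 1384903_at, read 122, 158, 259 and 147 on C7, C8, C9 and C11, and 128, 186, 148 and 151 on H1, H2, H3 and H5. All hyperthyroid arrays lay inside the control range, and C9 was the highest array. The log2 fold change was -0.11 ± 0.25 (SE, limma adjusted p = 0.920). The log2 ratio of the first probe set to the other was 3.10 to 3.61 on hyperthyroid and 1.72 to 2.96 on control arrays, and the groups did not overlap.

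Gpt, the cytosolic alanine aminotransferase, had a lower mean in the hyperthyroid group. Its probe set read 795, 619, 407 and 622 on C7, C8, C9 and C11, and 441, 473, 452 and 337 on H1, H2, H3 and H5. All hyperthyroid arrays lay below 3 of the 4 control arrays, and C9 lay among them. The mean of 426 ± 60.6 against 610.5 ± 159 in controls (SD, n = 4 each) gave a log2 fold change of -0.49 ± 0.20, which did not pass (limma adjusted p = 0.474). Without both C7 and C11 it was -0.25, and scaled to the median of the spiked hybridization controls it was 0.044, where the median of all tested probe sets stood at 0.51.

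The ratio of Gpt2 on probe set 1382232_at to Gpt separated the groups, although both overlapped when taken alone. The log2 ratio of Gpt2 (1382232_at) to Gpt was 1.35, 1.77, 1.58 and 2.47 on H1, H2, H3 and H5, and -0.73, 1.01, 1.09 and -0.33 on C7, C8, C9 and C11. The mean was higher by 1.53 in the hyperthyroid group, and each of the 4 hyperthyroid arrays exceeded each of the 4 controls. This pair was chosen after its values were seen, and 10.8% of the 10199 other genes had a ratio to Gpt that was likewise higher on all hyperthyroid arrays. With the other Gpt2 probe set the ratio to Gpt overlapped, with group means that differed by 0.38.

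**Figure D2:**
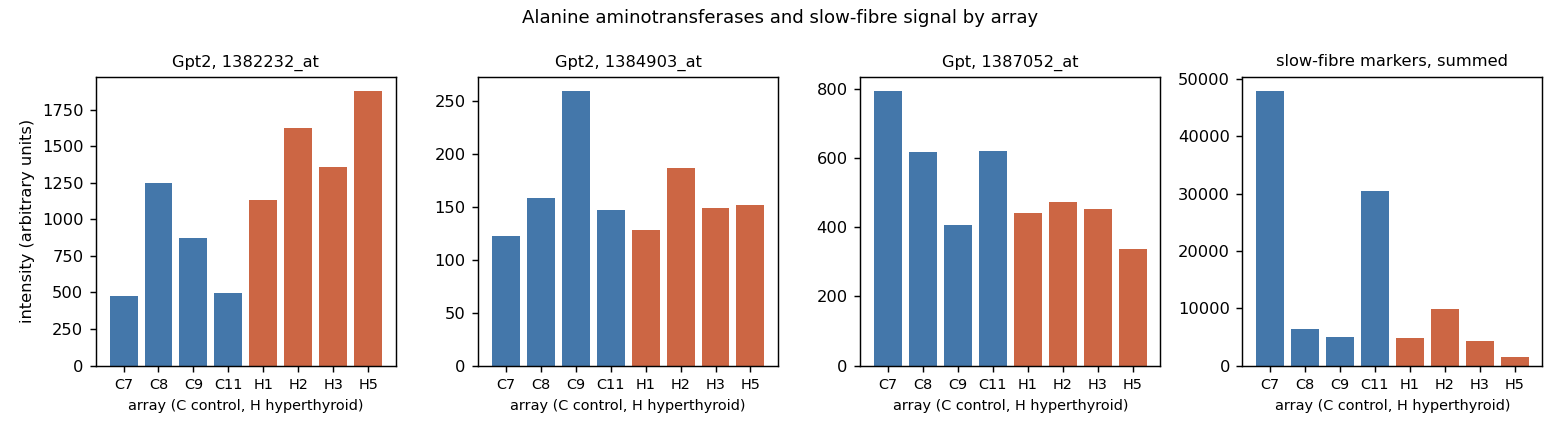
Intensity (arbitrary units) on each array for both Gpt2 probe sets, for Gpt, and summed over 9 slow-fibre markers, with control arrays C7 to C11 and hyperthyroid arrays H1 to H5. C7 and C11 have the lowest Gpt2 values on 1382232_at (478 and 495) and the highest slow-fibre sums (47949 and 30547).

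The gene most like Gpt2 (1382232_at) across arrays was listed as rnf141, a RING finger protein. After each group's mean was taken off, its log2 values correlated with those of Gpt2 at a Pearson r of 0.996 over the 8 arrays, the highest of 10199 genes. Its intensity was 78.3, 121, 102 and 79.7 on C7, C8, C9 and C11, and 169.9, 206, 192 and 224 on H1, H2, H3 and H5. The order of the arrays was the same within each group. Here the groups did not overlap, as for 6.15% of all tested probe sets (log2 fold change 1.05 ± 0.23, SE, limma adjusted p = 0.187). Kpna3, Iscu, Zfp64 and Capza2 followed with r of 0.966, 0.965, 0.954 and 0.952. All these values share the same 8 arrays and their scaling, and the highest of 10199 correlations over 8 arrays is high by selection.

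Neither aspartate aminotransferase separated the groups. Got1, the cytosolic form, read 4067, 3262, 3036 and 3652 on C7, C8, C9 and C11, and 5288, 3761, 3231 and 2098 on H1, H2, H3 and H5. The hyperthyroid arrays spread to both sides of the controls, with H1 above and H5 below all of them. The fold was 0.979 with a 95% interval of 0.705 to 1.36 (limma adjusted p = 0.977), and its sign turned without H5 (log2 0.20). With 4 arrays a group, differences within that interval are not excluded, and the interval is not a limit of detection.

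Got2, the mitochondrial form, gave 7926, 7131, 5818 and 7097 on C7, C8, C9 and C11 and 6909, 6928, 6332 and 4828 on H1, H2, H3 and H5 with probe set 1367819_at. The fold was 0.890 with a 95% interval of 0.716 to 1.11 (limma adjusted p = 0.739). H5 was the lowest array, as it was for Got1 and Gpt. The second Got2 probe set, 1389871_at, read 75.4 to 103 on hyperthyroid and 88.6 to 176 on control arrays, a log2 fold change of -0.44 ± 0.28 (SE, limma adjusted p = 0.626). On this one C11 and C7 were the highest arrays, and without both the log2 fold change was -0.083.

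In branched-chain amino acid breakdown, Bcat2 takes the amino group off leucine, isoleucine and valine, and the ketoacid dehydrogenase then commits the carbon skeletons to oxidation. Bcat2 read 215, 287, 289.8 and 254 on C7, C8, C9 and C11, and 319, 307, 240.0 and 289 on H1, H2, H3 and H5. The groups overlapped widely, with a 1.11-fold difference and a 95% interval of 0.843 to 1.45 (limma adjusted p = 0.828). The difference was -0.0055 on the log2 scale without both C7 and C11.

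The E1 subunits of the dehydrogenase, which form 1 enzyme component, had differences of opposite sign. Bckdhb, the beta subunit, read 1019, 1195, 1201 and 818 on C7, C8, C9 and C11, and 1661, 1331, 1616 and 1136 on H1, H2, H3 and H5. Of the hyperthyroid arrays 3 lay above all controls, and H5 lay among them. The mean was 1436 ± 248 against 1058 ± 181 in controls (SD, n = 4 each), a 1.36-fold difference with a 95% interval of 1.06 to 1.74 that did not pass (limma adjusted p = 0.443). Without both C7 and C11 the log2 fold change went from 0.44 to 0.24.

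Bckdha, the alpha subunit, read 590.2, 531, 456 and 437 on C7, C8, C9 and C11, and 550.5, 430.2, 382 and 298 on H1, H2, H3 and H5 with probe set 1370897_at. Of the hyperthyroid arrays 3 lay below all controls and H1 lay among them, and the difference did not pass (log2 fold change -0.30 ± 0.20, SE, limma adjusted p = 0.643). The second Bckdha probe set, 1380557_at, was the dimmest of the 15 at 6.58 to 48.7 over all arrays. It had the widest interval, from -1.43 to 1.34 on the log2 scale, and its sign changed under several settings. The opposite signs of the subunits were not tested against each other.

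Glutamine synthetase, encoded by Glul, joins ammonia to glutamate, and in muscle it is known as a target of glucocorticoids. Its 3 probe sets did not give the same answer. Probe set 1367632_at read 2191, 1676, 2825 and 1602 on C7, C8, C9 and C11, and 4981, 2044, 2710.1 and 3594 on H1, H2, H3 and H5. The mean was 3332 ± 1269 against 2073 ± 565 in controls (SD, n = 4 each), a 1.56-fold difference with a 95% interval of 1.08 to 2.25 that did not pass (limma adjusted p = 0.443). H1 was the highest array, and without it the log2 fold change went from 0.64 to 0.42.

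On 1386870_at, Glul read 2553, 2926, 4744 and 1870.3 on C7, C8, C9 and C11, and 3753, 2332, 2818 and 3185 on H1, H2, H3 and H5. The group means were 3022 ± 599 and 3023 ± 1228 in controls (SD, n = 4 each), and the log2 fold change was 0.061 ± 0.23 (SE, limma adjusted p = 0.957). On 1367633_at the hyperthyroid arrays ran from 900.1 to 1731 and the controls from 1077 to 3215, with a log2 fold change of -0.19 ± 0.30 (SE, limma adjusted p = 0.879). C9 was the highest control array on each of the 3. Without it, the log2 fold changes of 1386870_at and 1367633_at were 0.31 and 0.16.

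**Figure D3:**
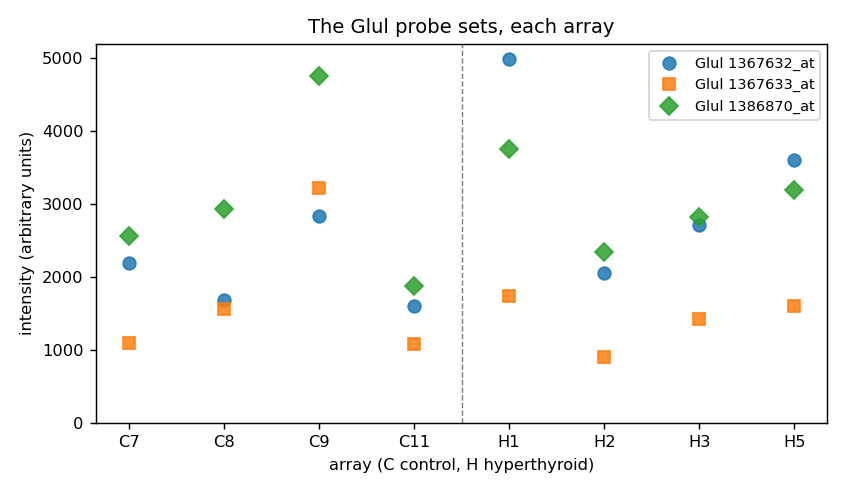
Intensity (arbitrary units) of the 3 Glul probe sets on each array, with control arrays left and hyperthyroid arrays right of the dashed line. The probe set 1367632_at (circles) reaches 4981 on H1, while C9 is the highest array for 1386870_at (4744) and 1367633_at (3215).

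Within 1 gene, the ratio of the brightest probe set to the next separated the groups for Glul as it did for Gpt2. The log2 ratio of 1386870_at to 1367632_at, the brightest Glul probe set to the next, was -0.41 to 0.19 on hyperthyroid and 0.22 to 0.80 on control arrays. The groups did not overlap, by a narrow margin. Of the 5 members with more than 1 probe set, this ratio separated the groups for 2, and it did so for 7.05% of the 2681 genes on the array that have 2 or more kept probe sets. Got2, Bckdha and Glud1 overlapped. The log2 ratio of 1386870_at to 1367633_at, the third Glul probe set, also overlapped, at 0.99 to 1.37 on hyperthyroid and 0.56 to 1.23 on control arrays. Which transcript ends the probe sets detect is not given in the sources used here.

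Glud1, the mitochondrial glutamate dehydrogenase, releases ammonia from glutamate and returns its carbon to the tricarboxylic acid cycle. On 1387878_at it read 1122, 1090.4, 1059 and 857 on C7, C8, C9 and C11, and 1138, 1251, 923 and 1024 on H1, H2, H3 and H5. The other probe set, 1370200_at, ran from 751 to 967 on hyperthyroid and from 609 to 953 on control arrays. Both overlapped throughout, with folds of 1.05 (95% interval 0.843 to 1.31) and 1.09 (95% interval 0.860 to 1.39), and limma adjusted p of 0.916 and 0.826. Glud1 on 1387878_at had the smallest spread within groups of the 15, an SD of 0.18 on the log2 scale, with Bcat2 next at 0.19. The median over all tested probe sets, many of them dimmer, was 0.44, and spread was not compared at like intensity.

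**Figure D4:**
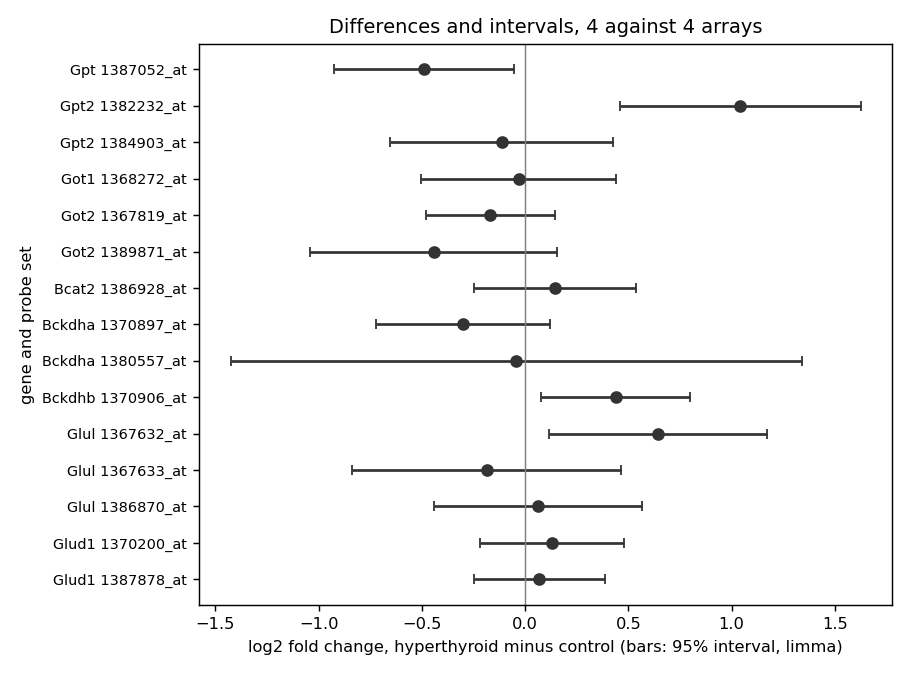
Log2 fold change of each of the 15 probe sets, hyperthyroid minus control, with its 95% interval from limma (4 against 4 arrays, not adjusted for the number of tests). The intervals of Gpt, Gpt2 (1382232_at), Bckdhb and Glul (1367632_at) lie off 0, and those of the 11 others include it.

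No other gene of branched-chain breakdown passed. Of 22 measured genes of that list, each by its brightest kept probe set, 14 were below 0 and 8 above, with a median log2 fold change of -0.10 against -0.0077 over all tested probe sets. That sign depended on the scaling, since the median was 0.12 after centring on array medians, where all tested probe sets stood at 0.21, and 0.22 and 0.43 when scaled to the mean and the median of the spiked controls, where they stood at 0.30 and 0.51. Before adjustment, 5 of the 22 (22.7%) had a limma p under 0.05, all of them lower, against 10.4% of all genes. These were Hibch and Hibadh, of valine breakdown, Pcca and Pccb, the subunits of propionyl-CoA carboxylase, and Oxct1, which activates ketone bodies. Hibch and Pcca had log2 fold changes of -0.64 ± 0.17 and -0.55 ± 0.16 (SE, limma adjusted p = 0.271 and 0.2996), and for both every hyperthyroid array was below every control array. Groups that did not overlap, in either direction, were found for 6.15% of all tested probe sets.

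Pccb and Oxct1 had -0.44 ± 0.16 and -0.53 ± 0.21 (SE, limma adjusted p = 0.415 and 0.467), and their groups overlapped. C7 and C11, the arrays with high slow-fibre signal, were the highest arrays for Oxct1 (7882 and 6652), while C9 and C11 were for Pccb. The regulators of the dehydrogenase did not pass. Bckdk, the kinase that switches it off, had a log2 fold change of 0.19 ± 0.25 and Ppm1k, the phosphatase that switches it on, had -0.36 ± 0.17 (SE, limma adjusted p = 0.835 and 0.5302). The 2 other kept probe sets of Ppm1k gave -1.12 and 0.49. On its brightest probe set C7 and C11 were the highest arrays (711 and 690). Klf15, a transcription factor known to induce branched-chain enzymes in mouse muscle, had -0.19 ± 0.20 (SE, limma adjusted p = 0.792).

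**Figure D5:**
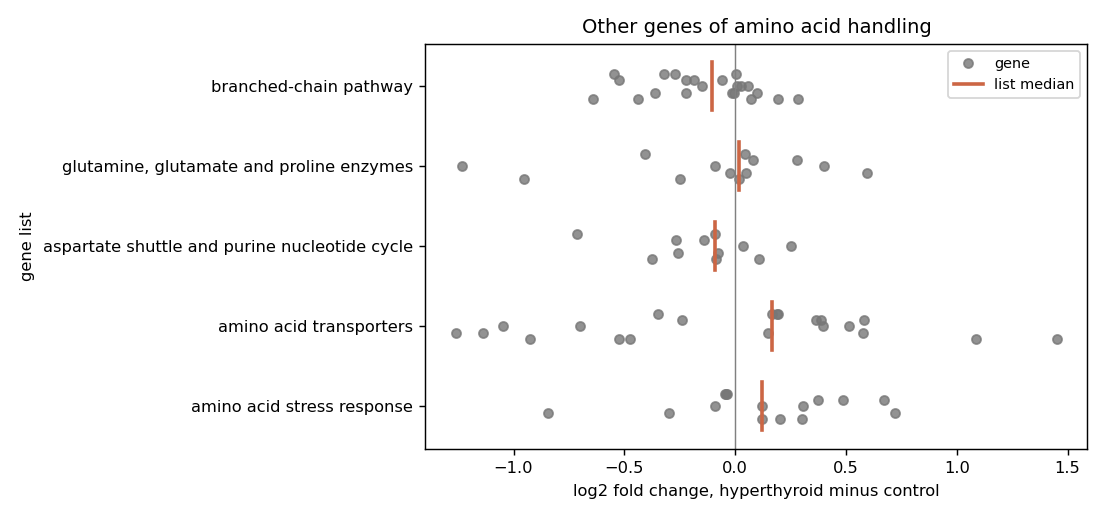
Log2 fold change, hyperthyroid minus control, of each measured gene (points, each by its brightest kept probe set) in 5 lists of amino acid handling, with list medians as lines. In the branched-chain list 14 of 22 genes lie below 0 under the deposited scaling (the median is above 0 after centring on array medians), and no gene shown passed an adjusted p of 0.05.

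Among 11 genes of the malate-aspartate shuttle and the purine nucleotide cycle, 8 were below 0, with a median of -0.089 that turned to 0.13 after centring on array medians. An unadjusted limma p under 0.05 was found for 3 (27.3%, against 10.4% of all genes), all lower. These were Ampd3, an AMP deaminase, at -0.71 ± 0.29, and the malate dehydrogenases Mdh1 and Mdh2, the partners of Got1 and Got2, at -0.37 ± 0.17 and -0.26 ± 0.12 (SE, limma adjusted p = 0.466, 0.497 and 0.501). For Mdh2 every hyperthyroid array was below every control array, a separation seen in 6.15% of all tested probe sets. C7 and C11, the arrays with high slow-fibre signal, were the highest arrays for Ampd3 (137 and 127) and Mdh1 (18065 and 17370). For Mdh2 the highest were C11 and C8. Whether fibre make-up had a part in these differences was not tested. Slc25a11, the shuttle's 2-oxoglutarate carrier, had 0.25 ± 0.13. Mdh1 and Mdh2 are abundant, with control means of 15473 and 9079, and abundant transcripts held less of the signal on hyperthyroid arrays, as given above. The part of that in their values was not tested.

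Of 21 measured amino acid carriers 12 were above 0 and 9 below, with a median of 0.17, which went to 0.015 without C7. Of the 21, 4 lay above the filter value in 1 group only, so they had to differ, and 17 were left. Before adjustment, 3 of these 17 had a limma p under 0.05, 1 higher and 2 lower, against 10.4% of all genes. Slc38a2, a glutamine and alanine carrier, had 0.40 ± 0.17. Slc3a2, the heavy chain of the leucine exchanger, had -0.47 ± 0.17 and Slc1a3, a glutamate carrier, -1.05 ± 0.44 on its brightest probe set and -0.17 ± 0.48 on the other. None passed (SE, limma adjusted p of the brightest probe sets = 0.478, 0.415 and 0.478). C7 and C11, the arrays with high slow-fibre signal, were the highest for Slc1a3 on its brightest probe set (105 and 83.5). For Slc3a2 the highest were C11 and C9. Slc7a1, a carrier of arginine and lysine, and Slc1a1, a glutamate carrier, also had an unadjusted p under 0.05 but are among the 4. Slc7a1 read 9.17, 10.01 and 12.9 on C8, C9 and C11, under the filter intensity of 22.4, 74.6 on C7 and 42.1 to 64.3 on hyperthyroid arrays.

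The enzymes of glutamine, glutamate and proline were split, with 7 above and 6 below 0 of 13 measured and a median of 0.019. Abat lay above the filter value in the control group only, so it had to differ. Without Abat, 7 were above and 5 below 0, with a median of 0.033. Ppat, which uses glutamine in purine synthesis, had 0.59 ± 0.27 and was the only one of the 13 with an unadjusted limma p under 0.05 (7.69%, against 10.4% of all genes). Prodh, which breaks down proline, had -1.23 ± 0.61, Gclm of glutathione synthesis -0.40 ± 0.22 and Kyat1, a glutamine transaminase, 0.40 ± 0.23 (limma adjusted p of the 4 from 0.506 to 0.605). Prodh is dim, at 49.8 to 88.9 on control arrays and 60.4, 23.7, 52.9 and 4.18 on H1, H2, H3 and H5. Its value on H5 is under the filter intensity of 22.4. Every hyperthyroid array of Gclm was below every control array. Of 15 genes of the amino acid stress response 9 were above 0, with a median of 0.12. Phgdh was above the filter value in the control group only, and without it 9 were above and 5 below 0, with a median of 0.16. Atf5, a factor of that response, had 0.49 ± 0.21 with every hyperthyroid array above every control array, and Ddit4, Cebpg and Shmt2 had 0.67 ± 0.34, 0.30 ± 0.17 and 0.37 ± 0.26 (SE, limma adjusted p from 0.480 to 0.668). Separations such as those of Gclm and Atf5 were seen in 6.15% of all tested probe sets. Asns and Psat1, well-known targets of that response, lay under the filter on low values.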

How the data were processed

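The deposited values are array intensities on a linear scale, 1 value for each of 31099 probe sets on 8 arrays. The submitters' processing notes name GCOS (Affymetrix software) without settings. The mean after 2% were left out at each end was 150.1 on every array, the mark of scaling to a common target, which removes differences in total RNA. Per the labels' protocols, cDNA was primed with oligo(dT), which favours the 3' ends of transcripts. A pseudocount of 3.41, the 10th percentile of the values, was added before log2 was taken, so folds of dim probe sets are understated. The 57 control probe sets were left out and those with a mean log2 above the 40th percentile (4.69) kept. limma (version 3.58.1 in R 4.3.3) fitted all 18625 at once, two-sided, with a variance trend and Benjamini-Hochberg adjustment over all of them at 0.05. The script was tested on simulated data. Gene symbols are those of the platform annotation. Members, lists and settings were chosen with earlier results of these data known. The rule named all member probe sets, the 4 genes of smallest p in each list and the 5 genes most like the leading member. Hibadh, Slc1a1, Bckdk, Ppm1k, Klf15, Asns and Psat1 were named outside it, after their values were seen.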

Additional observations from a re-analysis of the deposited data

How the results depend on the processing

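No paired analysis was possible because the groups share no replicate number. No member probe set passed under 20 of 22 alternatives. The exceptions were both scalings to 18 spiked hybridization controls, whose levels were lower on hyperthyroid arrays. Scaled to their median, 5 member probe sets passed, all higher (Gpt2 1382232_at 1.58, Bckdhb 0.97, Glul 1367632_at 1.18, Glud1 0.66 and 0.60 on the log2 scale), and 2798 of all. The median of all tested probe sets then stood at 0.51, and at 0.30 with the mean of the controls, a scaling chosen after seeing the data because the median falls between spike amounts. With that mean 1 member passed (Gpt2 1382232_at, 1.36, adjusted p = 0.0419), and 118 of all. Against 6 calls over all probe sets in the reported analysis, the other alternatives gave 0 (no variance trend, without C7 or without H3) to 22 (robust variance). The 4 member probe sets with an unadjusted p under 0.05 became 1 without C11 or without the variance trend, 2 without C8 and 2 without both C7 and C11.

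Signs turned under the scalings, for larger differences such as that of Gpt too. Scaled to the control median, Gpt was at 0.044, Gpt2 1384903_at 0.41, Got1 0.50, Got2 0.37 and 0.076, Bckdha 0.23 and 0.43, and Glul 1367633_at 0.35, all under the shift of 0.51. With the control mean, Gpt2 1384903_at was at 0.20, Got1 0.29, Got2 1367819_at 0.15, Bckdha 0.018 and 0.24, and Glul 1367633_at 0.13. Centred on array medians (shift 0.21), Gpt2 1384903_at was at 0.11, Got1 0.19, Got2 1367819_at 0.052, Bckdha 1380557_at 0.18 and Glul 1367633_at 0.034. Bckdha 1380557_at was also above 0 after quantile normalization (0.18), with a floor (0.017) and with array weights (0.16). Without both C7 and C11, Got1 was at 0.11, Bcat2 at -0.0055 and Glul 1386870_at at -0.32.

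With 1 array left out, the ranges that crossed 0 were -0.25 to 0.10 for Gpt2 1384903_at, -0.24 to 0.20 for Got1, -0.57 to 0.22 for Bckdha 1380557_at, -0.36 to 0.16 for Glul 1367633_at, -0.14 to 0.31 for Glul 1386870_at and -0.018 to 0.14 for Glud1 1387878_at. List medians ranged from -0.11 to 0.064 for the glutamine list, -0.21 to -0.057 for the shuttle and purine cycle, 0.015 to 0.19 for carriers and 0.053 to 0.25 for the stress response. The brightest-set share differed by -4.61 to -3.61 percentage points, and without C8 or C11 the exact permutation p was 0.0571.

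With the control median, medians of the branched-chain, glutamine, shuttle, carrier and stress lists were 0.43, 0.55, 0.41, 0.67 and 0.65. There 4, 3, 1, 5 and 5 genes passed, of lists with 22, 13, 11, 21 and 15 genes in the reported analysis. Under that scaling 2798 of all 18625 probe sets passed, and the median of all stood at 0.51. With the control mean the list medians were 0.22, 0.34, 0.21, 0.46 and 0.44, and no list gene passed, beside 118 of all probe sets. Centring gave 0.12, 0.24, 0.13, 0.39 and 0.34. The shuttle median was -0.14 with the stricter filter, array weights and averaged probe sets, and the stress median 0.25 and 0.26 under the first 2 of these. Without both C7 and C11, carriers were at 0.042 and the stress list at 0.43. The cause of these moves was not tested. With 4 arrays a group, the number of arrays limits every value, and 1380557_at is limited by its low signal.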
